A study of Chlamydomonas reinhardtii with 12 samples.

Results

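The 5 genes described here encode enzymes of carotenoid synthesis in the unicellular green alga Chlamydomonas reinhardtii: phytoene desaturase (PDS1, Cre12.g509650), zeta-carotene desaturase (ZDS1, Cre07.g314150), lycopene epsilon-cyclase (LCYE1, Cre06.g267600), beta-carotene hydroxylase (CHYB1, Cre04.g215050) and zeaxanthin epoxidase (ZEP1, Cre02.g082550). They were chosen by locus, and each locus had 1 gene model among the 17301 in the expression table. All 5 passed the filter on low values that kept 14311 models for testing. Transcripts were measured by Illumina RNA sequencing in 4 strains, each sampled once at 3 stages, which gave 12 samples. The strains were the crr1 mutant, 2 rescues of that mutant (crr1dCys and crr1:CRR1) and the wild type CC-124. CRR1 encodes a regulator that turns on genes when copper is scarce. The rescue crr1:CRR1 carries the full-length gene, and the name crr1dCys stands for a form known to lack the cysteine-rich end of the protein. The stages were culture in light and air (light-oxic), 0.5 h in dark, sealed bottles (dark-anoxic) and 6 h in the same bottles. Darkness and loss of oxygen began together, so their parts in any response cannot be told apart. A rescued strain shares the crr1 background, and strains with 1 sampling each per stage stood in for replicates, so p-values measure the spread between strains.

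Carotenoids are made in the chloroplast from phytoene, which PDS1 and then ZDS1 desaturate towards lycopene. Lycopene is the branch point. LCYE1 places the epsilon ring of the alpha-carotene branch, which leads to lutein, whereas CHYB1 hydroxylates beta-carotene to zeaxanthin and ZEP1 turns zeaxanthin into violaxanthin. Both desaturases pass electrons to plastoquinone, and the hydroxylase and the epoxidase use molecular oxygen as a substrate. Lutein and violaxanthin sit in the light-harvesting antenna, and zeaxanthin is known for photoprotection under strong light.

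The table holds 20 columns of RPKM (read counts scaled to model length and column depth), since 8 samples had a repeat column. Column names carry a series mark (TS1, TS2 or TS4) whose meaning the labels do not give. CC-124 was measured in TS2 alone, every TS4 column belongs to crr1:CRR1, and at 0.5 h the only crr1 column is a TS1 one. From the steps of low values, a column rested on 12001000 to 18894000 reads. Repeat columns had r of 0.981 to 0.991 across the models tested (log2 of RPKM + 1) in 7 samples and 0.836 in crr1:CRR1 at 6 h, whose TS4 column stands apart. That column touched the 5 genes unevenly. In it CHYB1 was 17.4-fold, LCYE1 4.81-fold, ZEP1 3.64-fold and PDS1 1.51-fold below the TS1 column of the same sample, while ZDS1 differed 1.04-fold. In the other 7 pairs the 2 columns differed by at most 1.28-fold for PDS1, ZDS1 and LCYE1, 1.46-fold for ZEP1 and 3.43-fold for CHYB1. For LCYE1, CHYB1 and ZEP1, tests that rest on 6 h in crr1:CRR1 are given with and without it.

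**Figure D1:**
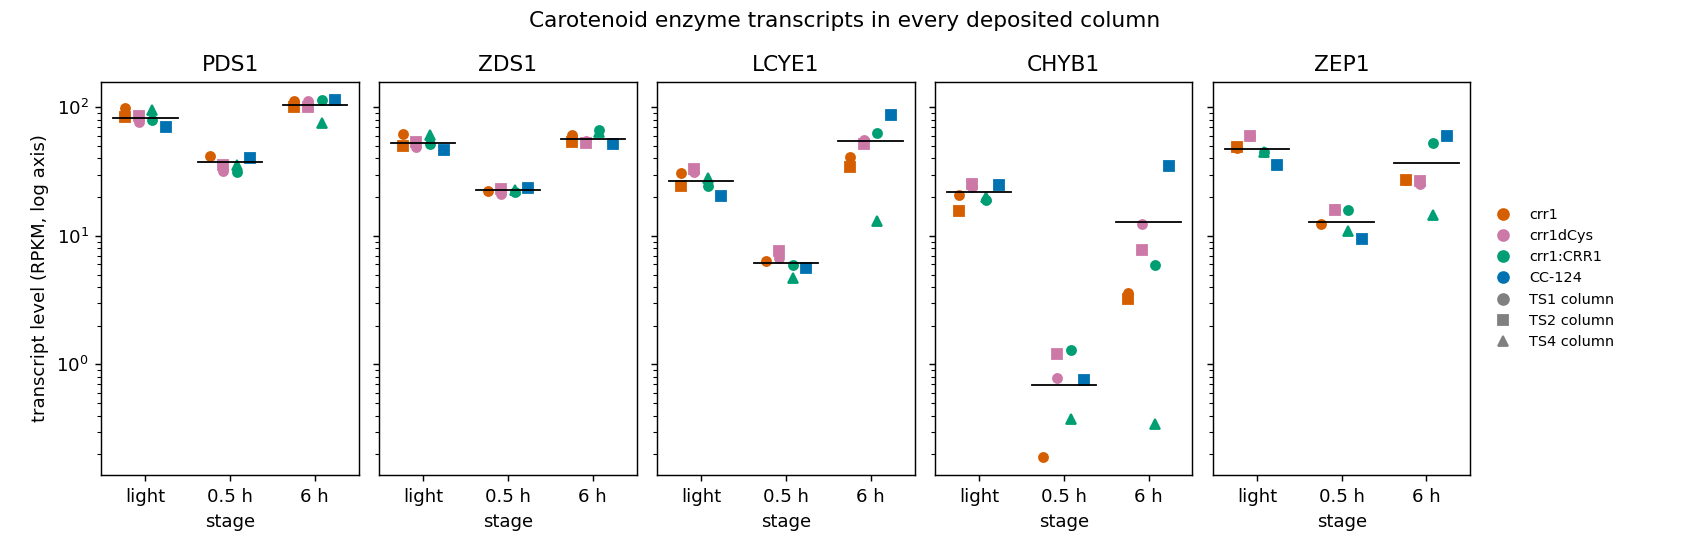
Transcript level (RPKM, log axis) of each gene in all 20 columns by stage, coloured by strain and shaped by column series, with a black line at the mean over 4 strains. Every gene is lowest at 0.5 h on average. At 6 h the strains spread widely for LCYE1, CHYB1 and ZEP1, and the TS4 triangle of crr1:CRR1 lies lowest in PDS1, LCYE1, CHYB1 and ZEP1.

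The first comparison asked what 0.5 h of dark anoxia did to these transcripts. All 5 fell, in 4 of 4 strains each, and all 5 were called lower. The levels of the stages did not overlap for any of them. Among all models tested, 4.92% were called lower by the same rule (limma adjusted p below 0.05 and a log2 fold change of at least 1), and 16.1% had 0.5 h levels wholly below their light-oxic levels. The median log2 fold change was -1.81 over the 5 genes and 0.02 over the 14311 models. The genes were chosen with such results in view, so this contrast describes them and is no independent evidence about the pathway. In RNA from whole cultures, fewer cells with a transcript and less of it per cell cannot be told apart. The fall was smallest in the desaturases and deepest in the hydroxylase.

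PDS1 had 41.6 RPKM in crr1, 33.7 in crr1dCys, 33.5 in crr1:CRR1 and 40.6 in CC-124 at 0.5 h. In light-oxic culture it had 90.9 RPKM in crr1, 81.3 in crr1dCys, 87.6 in crr1:CRR1 and 70.3 in CC-124. CC-124 started lowest and fell least, so that 57.8% of its light-oxic level was left, whereas the remaining strains kept 38.3% to 45.8%. Over strains PDS1 averaged 37.4 ± 4.34 RPKM at 0.5 h and 82.5 ± 9.09 RPKM in the light (SD, n = 4). On the log2 scale the change was -1.12 (SE 0.13, limma adjusted p = 0.000143).

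ZDS1, which acts on the product of PDS1, was almost the same in every strain at 0.5 h, with 22.3 RPKM in crr1, 22.1 in crr1dCys, 22.3 in crr1:CRR1 and 23.5 in CC-124. Its light-oxic levels were 56.2, 51.4, 56.3 and 46.6 RPKM in crr1, crr1dCys, crr1:CRR1 and CC-124. The spread over strains at 0.5 h was 2.68% of the mean, the narrowest of any gene and stage described here. Its log2 fold change was -1.18 (SE 0.11, limma adjusted p = 4.9e-05).

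LCYE1 fell further than both desaturases. It had 6.35 RPKM in crr1, 7.21 in crr1dCys, 5.33 in crr1:CRR1 and 5.61 in CC-124 at 0.5 h, against 27.7, 32.3, 26.3 and 20.4 RPKM in the same strains in the light. Between 20.3% and 27.6% of the light-oxic level was left in a strain. The log2 fold change was -1.94 (SE 0.26, limma adjusted p = 0.000368).

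CHYB1 was close to absent after 0.5 h. With 1 RPKM added to each value, its log2 fold change was the lowest of all 14311 models tested (other amounts were not ranked). It had 0.190 RPKM in crr1, 0.988 in crr1dCys, 0.833 in crr1:CRR1 and 0.751 in CC-124. In light-oxic culture the same strains had 18.2, 24.7, 19.7 and 24.8 RPKM. What was left came to 1.04% of the light-oxic level in crr1 and 3.03% to 4.24% elsewhere. The columns held 9 to 62 reads of CHYB1 at 0.5 h, against 877 to 1259 reads in the light. The lone crr1 column rested on 9 reads, with an exact 95% Poisson interval of 0.0868 to 0.361 RPKM that lies below those of CC-124 (0.526 to 1.04 RPKM) and of both crr1dCys columns (0.525 to 1.11 and 0.895 to 1.57 RPKM). It overlaps the interval of the TS4 column of crr1:CRR1 (0.223 to 0.595 RPKM), while the TS1 column of that sample had an interval of 0.988 to 1.65 RPKM. Such intervals cover counting error only, and the 2 columns of 1 sample already lay outside each other's interval. Over strains CHYB1 averaged 0.691 ± 0.348 RPKM at 0.5 h and 21.8 ± 3.42 RPKM in the light (SD, n = 4). The log2 fold change was -3.78 (SE 0.47, limma adjusted p = 0.000232) with 1 RPKM added to each value, and -4.99 with 0.1 or -2.23 with 5 added, so its size depends on that choice while the call did not.

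ZEP1, the last of these enzymes on the beta branch, had 12.3 RPKM in crr1, 16.0 in crr1dCys, 13.4 in crr1:CRR1 and 9.48 in CC-124 at 0.5 h. In the light it had 48.7 RPKM in crr1, 60.1 in crr1dCys, 45.0 in crr1:CRR1 and 35.3 in CC-124. The strains kept nearly the same fraction, from 25.3% to 29.7% of the light-oxic level, although they started at different levels. Its log2 fold change was -1.81 (SE 0.28, limma adjusted p = 0.000781). Among all models tested, ZEP1 had rank 105, LCYE1 rank 74, ZDS1 rank 452 and PDS1 rank 524 when ordered from the lowest log2 fold change.

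**Figure D2:**
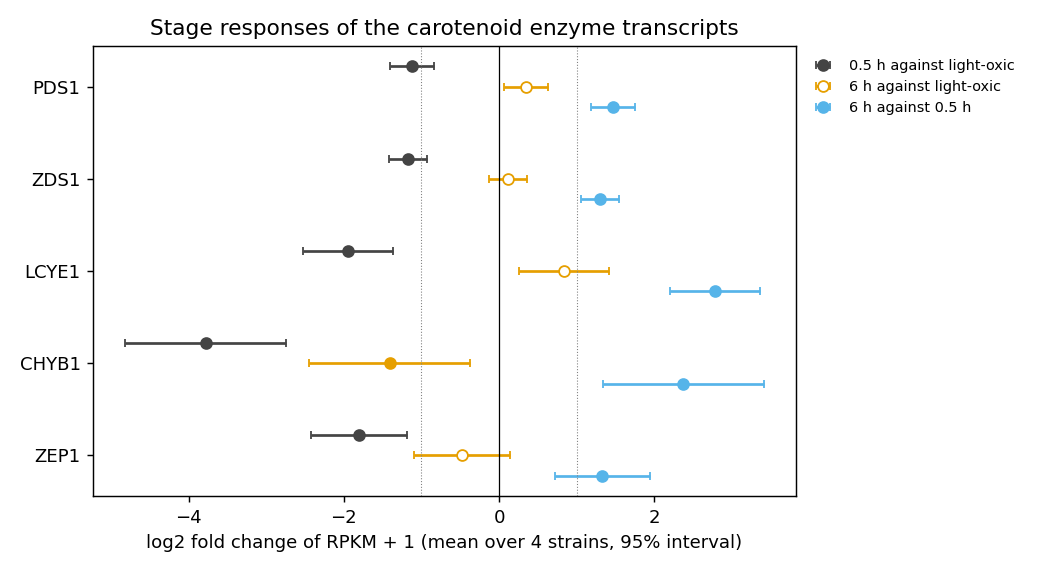
Log2 fold change of RPKM + 1 with its 95% interval (mean over 4 strains, limma) for each gene in the 3 stage comparisons. Filled points passed an adjusted p of 0.05 and a size of 1 (dotted lines), and open points did not. All 5 genes lie below -1 at 0.5 h and above 1 between 0.5 h and 6 h, while only CHYB1 is filled for 6 h against light-oxic culture.

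Between 0.5 h and 6 h in the same bottles, all 5 transcripts rose, in 4 of 4 strains. By the call rule all 5 were higher, as were 3.4% of all models tested. The share of all models rising in 4 of 4 strains was not computed. Levels at 6 h lay wholly above those at 0.5 h for each gene, as for 9.46% of all models. Falling at 0.5 h and rising again by 6 h was a course shared by 163 models, or 1.14% of those tested and 23.2% of the 704 early fallers. The 0.5 h samples enter both steps of that course, so the steps are not independent.

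LCYE1 rose by 2.78 log2 units between 0.5 h and 6 h (SE 0.26, limma adjusted p = 7.46e-05), with rank 17 of all models. CHYB1 rose by 2.37 log2 units (SE 0.47, limma adjusted p = 0.00347), which is 1.71 without CC-124. Which of the 2 rose more depends on the pseudocount, since with 0.1 RPKM added CHYB1 rose by 3.29 and LCYE1 by 2.95. Within series, the TS4 columns of crr1:CRR1 showed no rise of CHYB1, with a response of -0.03, against 1.61 in its TS1 columns. PDS1 rose by 1.47 (SE 0.13, limma adjusted p = 5.37e-05) and ZDS1 by 1.30 (SE 0.11, limma adjusted p = 4.51e-05). For both desaturases every strain contributed alike, with ratios of the 6 h to the 0.5 h level of 2.55 to 3.15 for PDS1 and 2.21 to 2.94 for ZDS1. ZEP1 rose by 1.33 (SE 0.28, limma adjusted p = 0.00471). Its ratio of levels was 1.63 to 2.52 in the crr1-derived strains, against 6.28 in CC-124, and without CC-124 its log2 change was 0.93 (limma adjusted p = 0.00215), under the size of 1. With TS2 columns alone its adjusted p was 0.0557. Without the TS4 column the rises were 3.05 for LCYE1, 2.67 for CHYB1 and 1.56 for ZEP1, all still called.

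Set against light-oxic culture, the 6 h levels separated the genes. The desaturases were back near their light level, LCYE1 stood above it in each strain, and CHYB1 and ZEP1 stood below it in the crr1-derived strains but above it in CC-124. By the call rule only CHYB1 had changed, as 7.03% of all models had in its direction, and 4.49% had risen. The median log2 fold change was 0.12 over the 5 genes and -0.03 over all models.

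PDS1 had 106 RPKM in crr1, 106 in crr1dCys, 95.1 in crr1:CRR1 and 113 in CC-124 at 6 h, all above its light-oxic levels, as 12.1% of all models were. In crr1:CRR1 the TS1 column had 115 RPKM and the TS4 column 75.6 RPKM, below the 95.6 RPKM of its light-oxic TS4 column. The change of 0.34 log2 units (SE 0.13, limma adjusted p = 0.0492) was under the size required. It was 0.42 without the TS4 column (limma adjusted p = 0.0114) and 0.43 without crr1:CRR1 (limma adjusted p = 0.0431). Without CC-124, crr1dCys or crr1 it was 0.23, 0.33 and 0.38, with limma adjusted p of 0.115 to 0.174. ZDS1 had 57.4, 53.9, 65.6 and 51.8 RPKM in crr1, crr1dCys, crr1:CRR1 and CC-124, overlapping its light-oxic levels. Its log2 fold change was 0.12 (SE 0.11, limma adjusted p = 0.409), with a 95% interval of -0.13 to 0.36, the narrowest of the 5 genes.

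LCYE1 reached 37.7 RPKM in crr1, 53.6 in crr1dCys, 38.1 in crr1:CRR1 and 87.8 in CC-124 at 6 h. These arithmetic averages lay wholly above the light-oxic levels, as for 12.1% of all models. On the log2 scale of the tests the stages overlapped, with 4.91 in crr1:CRR1 at 6 h against 5.06 in crr1dCys in the light. CC-124 went highest after starting lowest, at 431% of its light-oxic level, where the crr1-derived strains reached 136% to 166%. Within crr1:CRR1 the TS1 column had 63.1 RPKM and the TS4 column 13.1 RPKM, the latter below every light-oxic column. Over strains LCYE1 averaged 54.3 ± 23.5 RPKM at 6 h and 26.7 ± 4.94 RPKM in the light (SD, n = 4). The change of 0.84 log2 units (SE 0.26, limma adjusted p = 0.0248) was again under the size of 1. Without the TS4 column it was 1.11 (limma adjusted p = 0.00194) and passed, as it did with TS2 columns alone (1.05, limma adjusted p = 0.0338), and without CC-124 it was 0.43 (limma adjusted p = 0.0415). With all of crr1:CRR1 left out it was 1.07 (limma adjusted p = 0.0184).

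CHYB1 stood at 3.39 RPKM in crr1, 10.1 in crr1dCys and 3.16 in crr1:CRR1 at 6 h, but at 34.9 RPKM in CC-124. That is 18.7%, 40.7% and 16.1% of the light-oxic level in the crr1-derived strains, and 141% in CC-124. In crr1:CRR1 the TS1 column had 5.98 RPKM and the TS4 column 0.344 RPKM, which rested on 16 reads. The log2 fold change over strains was -1.41 (SE 0.47, limma adjusted p = 0.0315) and averages 3 strains with lower and 1 with higher levels at 6 h. Some alternatives lost the call with a value about as large and a wider error, namely without crr1dCys (-1.46, SE 0.62, limma adjusted p = 0.1005), without crr1 (-1.18, SE 0.59, limma adjusted p = 0.163) and without the strain block (-1.41, SE 0.58, limma adjusted p = 0.0895). Others lost it with a smaller value, namely without crr1:CRR1 (-0.96, limma adjusted p = 0.119), with TS2 columns alone (-1.03, limma adjusted p = 0.135) and with a pseudocount of 5 (-0.93, under the size of 1). The call held without the TS4 column (-1.11, limma adjusted p = 0.0243) and without CC-124 (-2.04, limma adjusted p = 0.00118).

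ZEP1 had 27.4 RPKM in crr1, 26.2 in crr1dCys, 33.7 in crr1:CRR1 and 59.5 in CC-124 at 6 h. Within crr1:CRR1 the TS1 column had 52.8 RPKM, above the light-oxic level of the strain, and the TS4 column had 14.5 RPKM. Over strains the log2 fold change against the light was -0.48 (SE 0.28, limma adjusted p = 0.188), with a 95% interval of -1.10 to 0.14. The levels of the stages overlapped. The value was -0.88 without CC-124 (limma adjusted p = 0.00183), -0.25 without crr1dCys (limma adjusted p = 0.573) and -0.25 without the TS4 column (limma adjusted p = 0.474), none of them of the size required.

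The strains were therefore compared in how far each gene had come by 6 h. The response of the crr1-derived strains was lower than that of CC-124 by 2.52 log2 units for CHYB1 (difference -2.52, SE 0.59, limma adjusted p = 0.150), 1.62 for LCYE1 (difference -1.62, SE 0.28, limma adjusted p = 0.0635) and 1.62 for ZEP1 (difference -1.62, SE 0.27, limma adjusted p = 0.0579). None of the 3 passed the adjusted threshold of 0.05, which 0.447% of all models passed. All 3 had an unadjusted p under 0.05 in the same limma fit, as 11.3% of all models did. The desaturases differed less, by -0.45 log2 units for PDS1 (95% interval -1.01 to 0.12) and -0.04 for ZDS1 (95% interval -0.58 to 0.49). At 0.5 h the differences were between -0.46 and 0.13 for the 5 genes, with limma adjusted p of 0.749 or more. At that time 0.307% of all models passed, and 7.8% had an unadjusted p under 0.05, with none of the 5 genes among them. The widest 95% interval at 0.5 h was that of CHYB1, from -1.22 to 1.48.

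Whether these differences passed depended on crr1:CRR1 and on the processing. With that strain left out, the difference was -2.16 for CHYB1 (limma adjusted p = 0.00806), -1.48 for LCYE1 (limma adjusted p = 0.0116) and -1.73 for ZEP1 (limma adjusted p = 0.00563), each past the threshold, in a fit that called 515 models in place of 64. Without its TS4 column alone, CHYB1 passed (-2.12, limma adjusted p = 0.0187), while LCYE1 (-1.26, limma adjusted p = 0.0901) and ZEP1 (-1.32, limma adjusted p = 0.169) did not. Leaving out crr1dCys or crr1 in place of it gave differences of the same sign with limma adjusted p of 0.185 to 0.499. With all strains kept, the 3 genes passed with a pseudocount of 5 (limma adjusted p of 0.0403 to 0.0487), ZEP1 with median of ratios scaling (limma adjusted p = 0.046) or quantile normalization (limma adjusted p = 0.0374), and LCYE1 with log2 of the mean of repeat columns (limma adjusted p = 0.0441). Within TS2, where CC-124 was measured, CHYB1 responded by -1.99 log2 units in crr1 and -1.58 in crr1dCys at 6 h, against 0.48 in CC-124. ZEP1 had responses of -0.82 and -1.13 in crr1 and crr1dCys in TS2, against 0.74 in CC-124. LCYE1 had 0.48 and 0.62 in crr1 and crr1dCys, against 2.06 in CC-124.

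**Figure D3:**
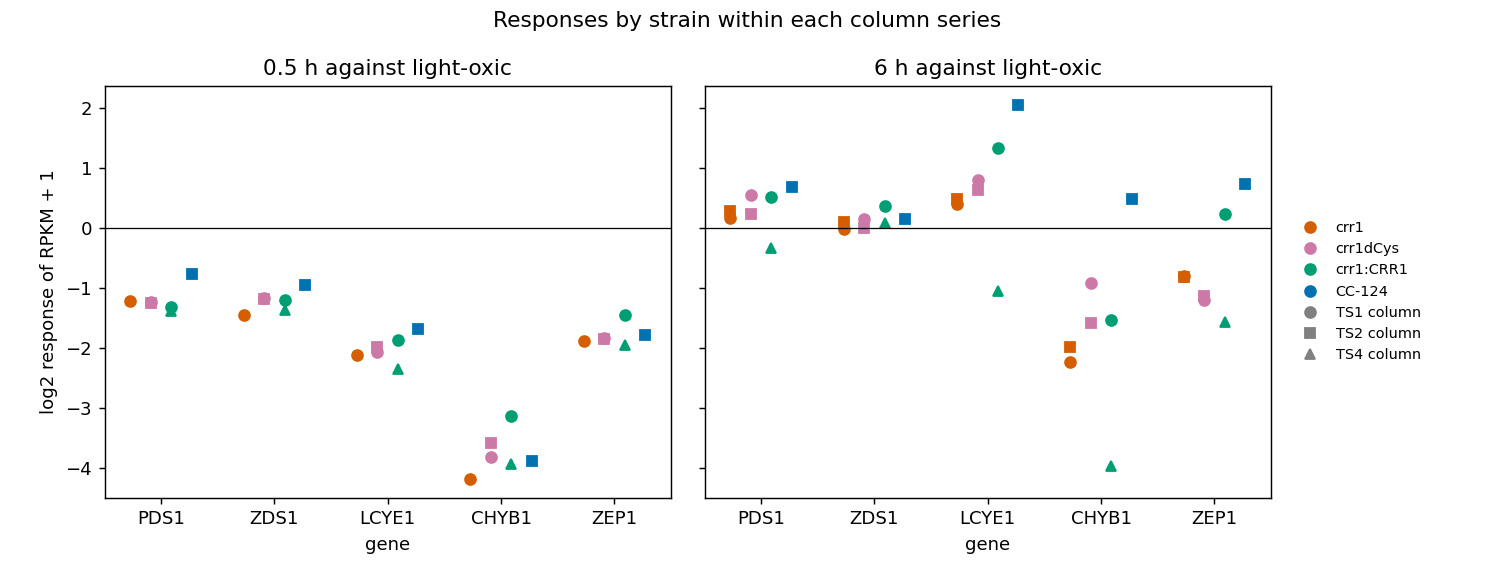
Log2 response of RPKM + 1 of each gene at 0.5 h (left) and 6 h (right) against light-oxic culture, within each strain and column series. At 0.5 h every point lies below 0. At 6 h the CC-124 square lies above 0 for all 5 genes, while CHYB1 lies below 0 in every column of the other strains and ZEP1 in all but the TS1 column of crr1:CRR1.

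Whether CRR1 itself mattered was asked by setting crr1, and then crr1dCys, against both strains with full-length CRR1 (crr1:CRR1 and CC-124). At 6 h the response of ZEP1 was lower by 0.84 log2 units in crr1 (difference -0.84, SE 0.72, limma adjusted p = 1) and by 1.20 in crr1dCys (difference -1.20, SE 0.72, limma adjusted p = 0.770). For LCYE1 the differences were -0.66 in crr1 and -0.39 in crr1dCys, with limma adjusted p of 1 and 0.902, and for CHYB1 they were -0.98 and -0.11, with limma adjusted p of 1 and 0.987. None of the 5 genes passed at either time, and 0% of all models did. At an unadjusted p under 0.05, none of the 5 genes passed, against 1.52% of all models at 0.5 h and 3.21% at 6 h for crr1, and 0.489% at 0.5 h and 6.14% at 6 h for crr1dCys. With 2 residual degrees of freedom the 95% intervals were wide, from -2.67 to 0.99 for ZEP1 in crr1 and from -4.89 to 2.94 for CHYB1 in crr1.

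Once the TS4 column was set aside, the columns of ZEP1, LCYE1 and ZDS1 divided by CRR1 form at 6 h. ZDS1, which hardly changed, did so narrowly, with 0.146 in crr1dCys in TS1 against 0.150 in CC-124. Those of PDS1 did not divide, with 0.54 in crr1dCys against 0.52 in crr1:CRR1 in TS1. The share of all models that divide in this way was not computed, so the division is a description only. The ZEP1 responses were -0.80 and -0.82 in the crr1 columns and -1.21 and -1.13 in the crr1dCys columns, against 0.23 in the TS1 column of crr1:CRR1 and 0.74 in CC-124. The TS4 column of crr1:CRR1 had -1.57, below all of them. Without TS4 the differences were -1.29 (SE 0.37, limma adjusted p = 0.99996) for crr1 and -1.65 (SE 0.37, limma adjusted p = 0.637) for crr1dCys, neither past the threshold. LCYE1 had responses of 0.40 and 0.48 in the crr1 columns and 0.80 and 0.62 in the crr1dCys columns, against 1.33 in the TS1 column of crr1:CRR1 and 2.06 in CC-124. Its TS4 column had -1.05. Without TS4 the LCYE1 differences were -1.21 (SE 0.41) for crr1 and -0.93 (SE 0.41) for crr1dCys, and those of CHYB1 were -1.57 (SE 0.93) and -0.70 (SE 0.93), with limma adjusted p of 0.859 or more. The columns of CHYB1 did not divide in this way, since TS1 had responses of -2.24 in crr1 and -0.91 in crr1dCys, against -1.53 in crr1:CRR1. With 1 column per strain and stage in a series, these orders within a series were not tested.

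Because LCYE1 and CHYB1 serve different branches after lycopene, their levels were also set against each other within each column, a ratio that no scaling of the column can change. In light-oxic culture the LCYE1 level was 0.821 to 1.54 times the CHYB1 level (median 1.31 over columns). At 0.5 h it was 4.60 to 33.5 times as high (median 8.08), and at 6 h 2.52 to 38.1 times (median 10.6). Both upper ends rest on few CHYB1 reads. The 33.5 came from the crr1 column with 9 reads, and the next highest was 12.6. The 38.1 came from the TS4 column of crr1:CRR1 with 16 reads, and the next highest was 11.6. No column of either dark stage reached down to the light-oxic range. At 6 h the ratio was lowest in CC-124 at 2.52, next lowest in crr1dCys at 4.50 in TS1 and 6.64 in TS2, and 11.6 and 10.6 in the TS1 and TS2 columns of crr1. In crr1:CRR1 it was 10.6 in TS1 and 38.1 in TS4. ZEP1, on the same branch as CHYB1, fell with it at 0.5 h but less far, so the ratio of ZEP1 to CHYB1 rose too. Per sample the ZEP1 level was 1.42 to 2.68 times that of CHYB1 in the light and 12.6 to 64.8 times at 0.5 h. The 64.8 was in crr1, with its 9 CHYB1 reads, and the next highest was 16.2 in crr1dCys. At 6 h it was 1.71 times in CC-124 and 2.60 times in crr1dCys, within the light-oxic range. In crr1 it was 8.07 times and in crr1:CRR1 10.7 times. A shift against CHYB1 at 0.5 h was thus not particular to the other branch. The ratio of PDS1 to ZDS1 moved far less, from 1.51 to 1.67 in the light, 1.42 to 1.86 at 0.5 h and 1.18 to 2.18 at 6 h.

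**Figure D4:**
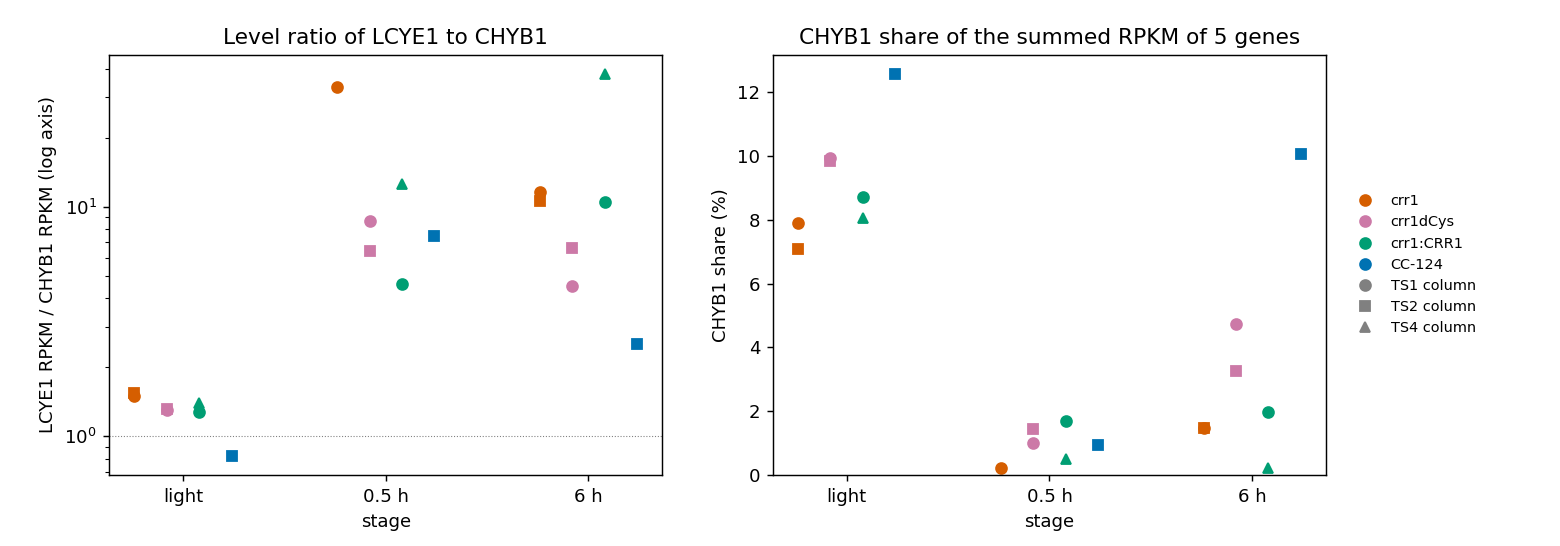
Left, LCYE1 RPKM divided by CHYB1 RPKM in each column (log axis, dotted line at equal levels). Right, CHYB1 as a percentage of the summed RPKM of the 5 genes. All light-oxic columns lie between 0.821 and 1.54 on the left, and at 6 h CC-124 has the lowest ratio and the highest CHYB1 share.

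As a per-length total, the 5 transcripts summed to 197 to 250 RPKM per sample in the light, 75.4 to 82.8 RPKM at 0.5 h and 232 to 347 RPKM at 6 h. PDS1 had the highest level per length of the 5 in every sample, with 32.6% to 37.6% of that sum in the light and 42.1% to 50.8% at 0.5 h. The CHYB1 share was 7.52% to 12.6% in the light and 0.229% to 1.23% at 0.5 h. At 6 h CHYB1 had 1.46% in crr1, 4.02% in crr1dCys, 1.34% in crr1:CRR1 and 10.0% in CC-124. In light-oxic culture CC-124 had the lowest level of PDS1, ZDS1, LCYE1 and ZEP1 among the strains and the highest of CHYB1, where it lay within 1 RPKM of crr1dCys. With 1 sample per strain these light-oxic differences carry no test.

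Across the 12 samples the profiles were compared by Pearson's r, without a test because the samples share stages and strains. PDS1 had r = 0.961 with LCYE1 and r = 0.960 with ZDS1, LCYE1 had r = 0.892 with ZDS1, and CHYB1 had r = 0.928 with ZEP1. CHYB1 had r of 0.729 with ZDS1 and 0.733 with PDS1. Of all models tested, the one most like LCYE1 was PDS1, and the one most like PDS1 was Cre10.g450900.t1.1 (r = 0.974). The closest to ZDS1 was Cre08.g372250.t1.1 (r = 0.986), to CHYB1 Cre14.g609300.t1.1 (r = 0.974) and to ZEP1 Cre03.g183850.t1.1 (r = 0.949). No table used here names those models. Those closest to PDS1 and CHYB1 were low, averaging 2.64 and 3.28 RPKM in the light and 0.747 and 0.681 RPKM at 0.5 h. Those closest to ZDS1 and ZEP1 averaged 19.6 and 43.1 RPKM in the light.

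The 5 loci lie on 5 different chromosomes in the RefSeq annotation of assembly v5.5 and overlap no other gene there. Of 9 directly neighbouring genes with a tested model, 2 were called lower at 0.5 h and 0 higher, with log2 fold changes between -1.44 and 0.50; among all models 4.92% were lower and 3.41% higher. The neighbours of PDS1 had -0.80 and 0.50, where PDS1 itself had -1.12. One neighbour of ZDS1 fell by 1.44 log2 units (difference -1.44), further than ZDS1 at -1.18, and the other had -0.20. The neighbours of LCYE1 had 0.45 and -0.10, where LCYE1 had -1.94. One neighbour of CHYB1 fell by 1.18 log2 units (difference -1.18) and the other had 0.11, where CHYB1 had -3.78. The 1 tested neighbour of ZEP1 had -0.36, where ZEP1 had -1.81.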

How the data were processed

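The authors deposited 1 table of 17301 gene models in 20 columns. Its header names no unit. The deposited values were read as RPKM from the values themselves, because low values of a model fell on whole multiples of a step. With the depths inferred from these steps, the lengths of 1273 low models came out whole (within 0.1 base) in 100% of cases, and with 23 other depths in 20.1% on average. A smaller depth with longer models would give the same steps, so depths are upper bounds. Read numbers of the 5 genes follow from the same steps (within 0.1 read) and are the smallest that they allow. Reads were handled with Bowtie, per the submitters' processing notes. Its version, the counting method, strand setting, genome build and annotation were not given in the sources used here.

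Columns were matched to samples by name, those of crr1 and crr1:CRR1 by elimination. Repeat columns were averaged, on the log2 scale for tests and responses and arithmetically for printed RPKM levels, so the 2 need not convert into each other. Values were analysed as log2(RPKM + 1), which understates changes of low genes. Models averaging 1 RPKM or more across samples were tested with limma 3.58.1 in R 4.3.3 (mean-variance trend, Benjamini-Hochberg adjustment over all 14311 models), with strain as a block, so samples are paired by strain. Residual degrees of freedom were 6 for stages, 4 for CC-124 and 2 for crr1 or crr1dCys. The lone strain is assumed to vary like the others. The fits were tested on simulated data with changes placed at 6 h, counted as recovered at an adjusted p below 0.05. The size of 1 that a stage call also needs was not applied, so fewer changes of 1 log2 unit may be called. Changes were placed only in models well above the filter in light-oxic culture, so recovery in low models was not tested. The stage test recovered 86% of changes of 1 log2 unit and 100% of changes of 2. The test of CC-124 recovered 2% of differences of 1 log2 unit, 48% of 2 and 82% of 3. A difference of 1 to 2 log2 units between CC-124 and the crr1-derived strains could thus often be missed.

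The genes, lists and tests were chosen with earlier results of these data known. The rule for named genes took the 5 genes, named genes of a pathway list and, for each of the 5, the models of highest r. The reference table holds 0 gene symbols, so 24 listed loci in the table were not used here, nor was the CRR1 gene, and the strain labels were not checked against it. No sequence was used here.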

Additional observations from a re-analysis of the deposited data

Results flagged for a closer look

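Of the 15 sets of 4 strain values (5 genes at 3 stages), 1 had a value whose gap to its nearest neighbour was most of the range. ZDS1 at 0.5 h had 23.5 RPKM in CC-124, against 22.1 to 22.3 RPKM in the other strains. Chance gives about 1 such set in 20, and the whole range was narrow.

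At 6 h against light-oxic culture, 2 genes had moved in opposite directions in the crr1-derived strains and in CC-124. How many of all models split in this way was not computed, so whether the count is unusual was not tested. CHYB1 had responses of -2.12 in crr1, -1.25 in crr1dCys and -2.75 in crr1:CRR1, against 0.48 in CC-124, a difference of responses of -2.52 log2 units (SE 0.59, limma adjusted p = 0.150). ZEP1 had responses of -0.81 in crr1, -1.17 in crr1dCys and -0.67 in crr1:CRR1, against 0.74 in CC-124, a difference of -1.62 log2 units (SE 0.27, limma adjusted p = 0.0579). Neither difference passed the threshold over all columns. The direction of ZEP1 in crr1:CRR1 rests on the TS4 column, since the TS1 column had 0.23. CC-124 occurs in TS2 only, and series and strain cannot be told apart between TS2 and the crr1:CRR1 columns.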

How the results depend on the processing

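Of the alternative values for the 5 genes in the stage comparisons, 198 kept their direction and their side of the threshold, 8 fell short of it and 4 newly passed, and none turned. The fall at 0.5 h was called for 5 of 5 genes under every alternative run, and the rise from 0.5 h to 6 h for 4 or 5. For 6 h against light-oxic culture, 1 gene was called, and 0 with a pseudocount of 5 or with no replicate block (samples not paired by strain), 2 with quantile normalization or without the TS4 column, and 0 to 1 when 1 strain was left out. The 1 gene called was LCYE1 in place of CHYB1 without crr1:CRR1 and with TS2 columns alone.

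For CC-124 against the crr1-derived strains, the number of genes called was 0, and 3 with a pseudocount of 5, 1 with median of ratios scaling, quantile normalization, log2 of the mean of repeat columns or without the TS4 column, and 0 to 3 when 1 strain was left out. With TS2 columns alone, an alternative added after seeing the data that leaves 1 residual degree of freedom, it was 3. Differences near 0 turned. CHYB1 at 0.5 h had -0.17 with a pseudocount of 0.1, and ZDS1 at 6 h had 0.037 with median of ratios scaling. ZEP1 at 0.5 h had 0.0044 with a pseudocount of 0.1, 0.063 with median of ratios scaling, 0.086 with quantile normalization, 0.023 with TS2 columns alone and -0.080 to 0.021 when 1 strain was left out (0.021 without crr1). For crr1dCys against the full-length strains at 6 h, CHYB1 had 0.22 with a pseudocount of 0.1 and 0.022 with median of ratios scaling. The cause was not tested.

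Over all models, the counts at 0.5 h were 488 higher and 704 lower, and 747 and 983 with a pseudocount of 0.1 or 248 and 299 with 5. At 6 h they were 643 and 1006, and 287 and 506 with a pseudocount of 5. From 0.5 h to 6 h they were 487 and 743, 739 and 1133 with 0.1, and 188 and 365 with 5. Models differing between CC-124 and the crr1-derived strains numbered 44 at 0.5 h and 64 at 6 h, with ranges of 0 to 323 and 5 to 834 over the alternatives. CHYB1 at 0.5 h is limited by depth, with 9 reads in the crr1 column.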
